A study of Mus musculus with 11 samples.

Results

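The genes described here are 10 genes of hepatic fatty acid synthesis, taken by their Ensembl gene identifiers from a fixed list whose rule uses no measured value. All 10 were present among the 22019 genes of the deposited count table. They are Acly (ENSMUSG00000020917), Acss2 (ENSMUSG00000027605), Me1 (ENSMUSG00000032418), Acaca (ENSMUSG00000020532), Acacb (ENSMUSG00000042010), Fasn (ENSMUSG00000025153), Scd1 (ENSMUSG00000037071), Gpam (ENSMUSG00000024978), Thrsp (ENSMUSG00000035686) and Mid1ip1 (ENSMUSG00000008035). The symbols come with the list, since the count table pairs no identifier with a name. Footprints were sequenced from livers of male wild-type mice given a high-fat, high-sugar (HFHS) diet or chow. The labels give neither strain, age nor length of feeding, and they do not say whether each library came from its own animal. Monosome footprints (about 30 nt, the mRNA under a single ribosome) were measured in 3 HFHS and 3 chow libraries. Disome footprints (about 60 nt, the mRNA under a pair of stacked ribosomes) were measured in 2 HFHS and 3 chow libraries.

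Fatty acid synthesis turns cytosolic acetyl-CoA into palmitate and is one of the main ways in which liver stores surplus sugar as fat. Citrate and acetate give acetyl-CoA, acetyl-CoA carboxylase makes malonyl-CoA from it, and fatty acid synthase joins these units at the expense of NADPH. The product is then desaturated and placed on glycerol. In liver the pathway is known to be switched on by insulin through SREBP and by sugar through ChREBP, and to be restrained by dietary polyunsaturated fat.

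Library totals were 1196240 to 1612324 counts in HFHS and 795145 to 1248781 in chow for monosomes, and 235748 to 238837 in HFHS and 147212 to 279331 in chow for disomes. Levels below are CPM (counts scaled to a common library size) after TMM scaling within the footprint class. Libraries are named by the sample barcodes of their columns. The values of a gene are listed for library CTAGA, then library GATCA (monosomes only), then library GCATA in HFHS, and for library AGCTA, then library ATCGT, then library CGTAA in chow. The chow library AGCTA stood apart in both classes: across 2160 genes its log2 levels correlated with the other libraries of its class at r = 0.80 to 0.88 in monosomes and 0.80 to 0.83 in disomes, against 0.95 to 0.98 and 0.94 to 0.96 among the others. Fitted log2 values that rest on it are given with and without it. The group comparisons of ratios to Fasn and the profile correlations are given only with it. No mRNA measurement was used here, so ribosome loading and mRNA abundance cannot be told apart, nor can fewer cells of a type and less RNA per cell. Together the 10 genes took 1.20%, 1.17% and 1.39% of HFHS and 1.75%, 1.28% and 1.18% of chow monosome counts. They took 1.89% and 2.13% of HFHS and 2.66%, 2.06% and 1.69% of chow disome counts. The groups overlapped in both classes, and the chow mean was above the HFHS mean with AGCTA and below it without. Coding lengths were not used here, so the level of a gene is compared only with itself, across libraries. The share of all genes whose levels do not overlap between groups is not given here. A lack of overlap of levels below therefore describes a gene and tests nothing.

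The genes at the extremes of the diet comparison are shown first by the 250 bases before their annotated start, in the direction of transcription (RefSeq, build GRCm38.p6; 9 of the 10 genes, all but Scd1, matched by symbol, with 11 starts). Fasn and Mid1ip1 had the lowest HFHS over chow ratios in monosomes. For Acss2 and Gpam, 2 of the 4 genes with the highest ratios, every HFHS library lay above every chow library. Capitals mark the motifs that were searched on both strands.

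Fasn, chr11:120824548-120824797, minus strand: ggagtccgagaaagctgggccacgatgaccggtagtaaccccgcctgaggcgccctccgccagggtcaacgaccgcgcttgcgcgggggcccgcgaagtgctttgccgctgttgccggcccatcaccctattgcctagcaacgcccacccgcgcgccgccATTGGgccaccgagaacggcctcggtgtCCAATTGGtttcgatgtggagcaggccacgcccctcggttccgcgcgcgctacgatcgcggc

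Mid1ip1, chrX:10717115-10717364, plus strand: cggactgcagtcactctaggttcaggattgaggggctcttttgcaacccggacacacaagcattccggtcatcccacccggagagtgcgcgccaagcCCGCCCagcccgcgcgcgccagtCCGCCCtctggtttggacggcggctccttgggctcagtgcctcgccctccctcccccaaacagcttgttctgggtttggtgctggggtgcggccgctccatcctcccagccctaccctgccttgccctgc

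Acss2, chr2:155517793-155518042, plus strand: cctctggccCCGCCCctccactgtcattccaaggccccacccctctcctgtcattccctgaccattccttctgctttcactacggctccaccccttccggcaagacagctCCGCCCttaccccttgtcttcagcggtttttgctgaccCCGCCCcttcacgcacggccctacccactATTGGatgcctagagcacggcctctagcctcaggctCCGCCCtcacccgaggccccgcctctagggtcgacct

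Gpam (the first of its 2 starts), chr19:55127239-55127488, minus strand: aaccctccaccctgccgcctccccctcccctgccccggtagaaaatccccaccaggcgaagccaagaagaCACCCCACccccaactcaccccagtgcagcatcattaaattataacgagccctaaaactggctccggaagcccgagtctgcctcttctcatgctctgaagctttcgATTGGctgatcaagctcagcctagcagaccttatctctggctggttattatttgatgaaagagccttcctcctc

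The motifs were CCAAT (the box bound by NF-Y), GGGCGG (the GC box), CACCCCAC (the core of the SREBP site as it is known from sterol-regulated genes), CACGTG (the palindromic E-box) and TATAAA. The Fasn window held 3 CCAAT matches, 90, 62 and 59 bases before the start, of which the last 2 overlap on opposite strands. The Thrsp window held 2 CCAAT matches, 79 and 52 bases before its start. Mid1ip1 held 2 GC boxes and no CCAAT. Acss2 held 4 GC boxes and 1 CCAAT, and Gpam held the SREBP core 180 bases and a CCAAT 74 bases before its start. Of the 11 member windows, 6 held CCAAT, 5 the GC box, 1 the SREBP core, 1 TATAAA and 0 the palindromic E-box. Among all 32851 windows of this length the shares were 33.8% for CCAAT, 32.7% for the GC box, 2.58% for the SREBP core, 12.4% for TATAAA and 6.02% for the E-box. A match here is only a run of letters, and no factor binding was measured.

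The first comparison asked how the HFHS diet changed monosome footprints on these genes. Fasn, the synthase itself, and Mid1ip1, a partner of acetyl-CoA carboxylase, fell to 0.695 and 0.634 of their chow levels, although both calls were lost when certain single libraries were left out. edgeR called 0 of the 10 higher and 2 lower, where 3.02% of the 6754 genes tested were called higher and 1.63% lower. At an unadjusted p below 0.05 there were 2 members above 0 (Acss2 and Gpam) and 2 below (Fasn and Mid1ip1). Of the 6754 genes tested, 1143 had such a p. DESeq2 called 1 member higher (Acss2) and 0 lower. All 10 members passed the count filter. Of these, 7 had a log2 fold change above 0 and 3 below, with a median of 0.19, against -0.016 over all genes tested.

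Acly, the enzyme that splits exported citrate into acetyl-CoA and oxaloacetate, had 983, 912 and 1696 CPM in HFHS monosomes, against 1008, 788 and 699 CPM in chow. The HFHS library GCATA was far above the rest, and the groups overlapped. The log2 fold change of 0.53 ± 0.26 (SE) did not pass (adjusted p = 0.381), and it was 0.19 without GCATA. Acss2, which makes acetyl-CoA from acetate, had 344, 417 and 519 CPM in HFHS and 339, 204 and 180.3 CPM in chow. Every HFHS library lay above every chow library, the nearest pair being HFHS CTAGA and chow AGCTA. The log2 fold change of Acss2 was 0.83 ± 0.23, the highest of the 10, and missed the threshold (adjusted p = 0.0622). It was 1.15 without AGCTA (adjusted p = 0.000131), and DESeq2 also placed it past the threshold (adjusted p = 0.00933). Me1, which forms NADPH as it turns malate into pyruvate, had 317, 463 and 643 CPM in HFHS and 454, 267 and 212 CPM in chow. Its groups overlapped and its libraries spread more than those of most members, so that a log2 fold change of 0.62 ± 0.41 stayed far from the threshold (adjusted p = 0.557).

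Neither carboxylase passed, and the approximate 95% intervals of their log2 fold changes were -0.18 to 0.52 for Acaca and -0.20 to 0.60 for Acacb. Acaca, whose cytosolic product feeds synthesis, had 229, 177 and 234 CPM in HFHS and 259, 161 and 153 CPM in chow (log2 fold change 0.17 ± 0.18, adjusted p = 0.709). Acacb, whose product at the mitochondrial surface restrains fatty acid uptake for oxidation, had 199, 184 and 306 CPM in HFHS and 261, 179.9 and 163 CPM in chow (log2 fold change 0.20 ± 0.21, adjusted p = 0.701). In both genes the chow library AGCTA was the highest chow library and lay among or above the HFHS values. The 2 enzymes are close relatives, and how reads that fit both were counted is not given in the sources used here, so the division between them is uncertain.

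Fasn, the multidomain synthase that builds palmitate, had 3670.2, 3294 and 3555 CPM in HFHS and 6416, 4534 and 4188 CPM in chow. The HFHS libraries lay close together and below every chow library, while AGCTA was well above the other chow libraries. The mean was 3506 ± 193 CPM in HFHS and 5046 ± 1199 CPM in chow (SD, n = 3 each), a log2 fold change of -0.52 ± 0.13 with edgeR adjusted p = 0.0281. Without AGCTA it was -0.31 and did not pass (adjusted p = 0.211). The call was also lost, with a log2 fold change of -0.59 (adjusted p = 0.0693) without the chow library ATCGT, -0.48 (adjusted p = 0.109) without the HFHS library GATCA, -0.53 (adjusted p = 0.231) without the HFHS library GCATA and -0.52 (adjusted p = 0.0612) with DESeq2.

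Scd1, which places the double bond that makes oleate and palmitoleate, had 4292, 4359 and 4952 CPM in HFHS and 5606, 4798 and 3190.4 CPM in chow. The HFHS values fell inside the wide chow range, and the log2 fold change was 0.0011 ± 0.19 (adjusted p = 0.998). Reads that Scd1 shares with related desaturase genes may have been divided in the counting. Gpam, the mitochondrial acyltransferase that starts glycerolipid assembly, had 380.2, 388 and 563 CPM in HFHS and 348, 326 and 249.6 CPM in chow. All HFHS values lay above all chow values, and the log2 fold change of 0.53 ± 0.16 missed the threshold (adjusted p = 0.0592). It was 0.63 without AGCTA (adjusted p = 0.0592) and 0.33 without the HFHS library GCATA (adjusted p = 0.332), and it passed without the HFHS library GATCA (0.62, adjusted p = 0.0398).

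Thrsp and Mid1ip1 encode small related proteins, of which Mid1ip1 is known to promote the assembly of acetyl-CoA carboxylase into active polymers and Thrsp to bind Mid1ip1. Thrsp had 1879, 1764 and 1842 CPM in HFHS and 3151, 1678 and 2306 CPM in chow. The HFHS values were tight, and the chow values lay on both sides of them, and the log2 fold change of -0.38 ± 0.19 did not pass (adjusted p = 0.351). It passed without the chow library ATCGT (-0.57, adjusted p = 0.00628) and with no filter on low counts (-0.36, adjusted p = 0.0345). Mid1ip1 had 72.4, 58.3 and 61.5 CPM in HFHS and 76.0, 111 and 113 CPM in chow. Every HFHS value was below every chow value, although AGCTA came close to the HFHS library CTAGA. The mean was 64.1 ± 7.39 CPM in HFHS and 100.04 ± 20.9 CPM in chow (SD, n = 3 each), a log2 fold change of -0.66 ± 0.17 with edgeR adjusted p = 0.0227. Here the value without AGCTA was further from 0, -0.80 (adjusted p = 0.00975). The call was lost, with a log2 fold change of -0.57 (adjusted p = 0.0895) without ATCGT, -0.56 (adjusted p = 0.162) without CGTAA, -0.60 (adjusted p = 0.0647) without GATCA, -0.62 (adjusted p = 0.0711) without GCATA and -0.65 (adjusted p = 0.0969) with DESeq2. Raw counts of Mid1ip1 were 97, 68 and 96 in HFHS and 59, 136 and 119 in chow, the fewest of the 10 genes.

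Without the chow library AGCTA the 6 members other than Fasn, Mid1ip1, Acss2 and Gpam all had a higher log2 fold change, which was 0.69 for Acly, 0.99 for Me1, 0.44 for Acaca, 0.43 for Acacb, 0.18 for Scd1 and -0.12 for Thrsp, and none of these passed (adjusted p from 0.128 to 0.774).

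**Figure D1:**
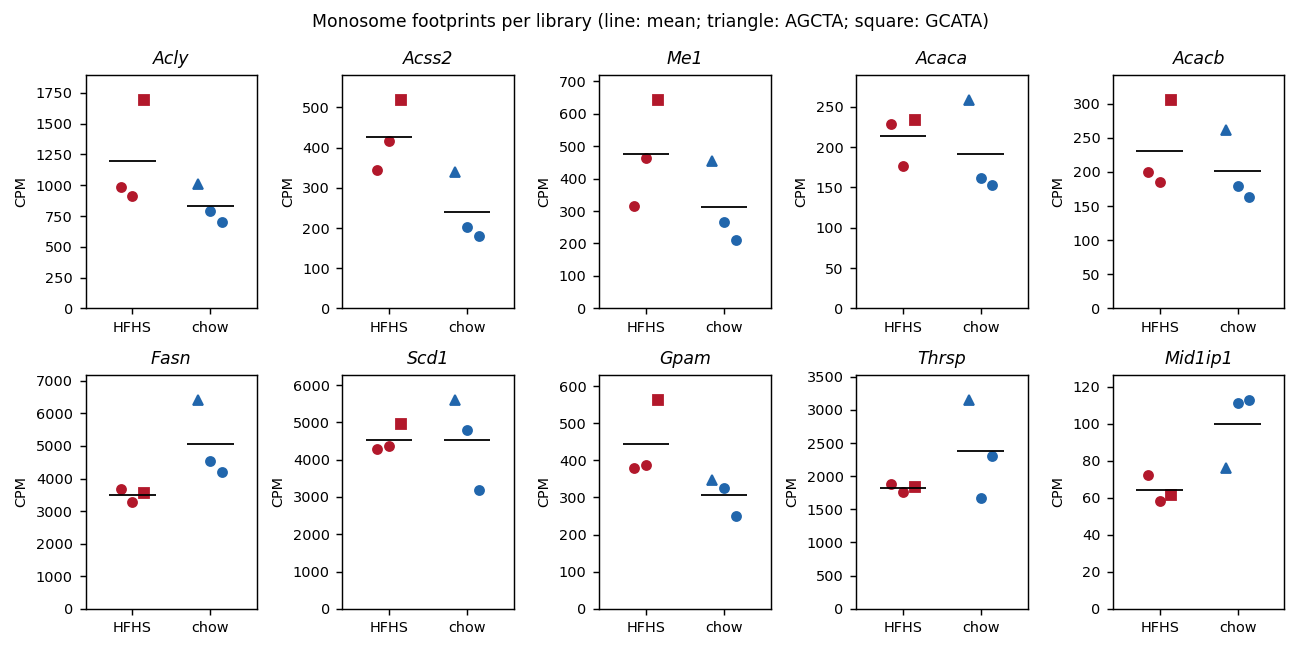
Monosome level (CPM, linear axis from 0) of each gene in each library, 3 HFHS libraries left and 3 chow libraries right, with the mean as a line. The chow library AGCTA (triangle) is the highest chow library in every panel except Mid1ip1, and the HFHS library GCATA (square) is the highest HFHS library in every panel except Fasn, Thrsp and Mid1ip1.

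The balance between the genes was then read inside each library, as counts of each gene per 100 counts of Fasn, a ratio that no scaling between libraries can alter. It was chosen after the levels had been seen. In monosomes, 7 of the other 9 genes had a ratio to Fasn that was higher in every HFHS library than in every chow library. Of all other genes tested, 38% met the same criterion, which includes the lower Fasn level itself. None of the 9 was lower in every HFHS library, against 0.696% of all other genes tested. The smallest two-sided exact permutation p that these group sizes allow is 0.1.

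Acss2 stood at 9.38, 12.7 and 14.6 counts per 100 Fasn counts in HFHS monosomes, against 5.28, 4.49 and 4.31 in chow. AGCTA was the highest chow library on this scale too, by a narrower margin, and the means differed 2.60-fold (12.2 ± 2.64 and 4.69 ± 0.516, SD, n = 3 each, exact permutation p = 0.100). Acly stood at 26.8, 27.7 and 47.7 in HFHS and 15.7, 17.4 and 16.7 in chow, a tight chow group with GCATA again far above the other HFHS libraries. Me1 stood at 8.63, 14.1 and 18.1 in HFHS and 7.08, 5.90 and 5.05 in chow. Gpam stood at 10.4, 11.8 and 15.8 in HFHS and 5.42, 7.20 and 5.96 in chow. The means of Acly, Me1 and Gpam differed 2.05, 2.26 and 2.04-fold in the same direction, with no overlap of groups. The carboxylases and Scd1 differed less, by 1.62-fold for Acaca, 1.64-fold for Acacb and 1.44-fold for Scd1, also without overlap. Thrsp and Mid1ip1 overlapped between the diets: Thrsp stood at 52.2 ± 1.22 in HFHS and 47.1 ± 9.20 in chow (exact permutation p = 0.500).

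In disomes, 6 of the 9 ratios to Fasn were higher in both HFHS libraries than in all chow libraries, against 37.2% of all other genes tested, and 1 (Mid1ip1) was lower in both, against 2.6%. Acly stood at 30.3 and 51.1 per 100 Fasn counts in HFHS disomes and 23.9, 21.2 and 20.0 in chow. Acss2 stood at 14.0 and 21.0 in HFHS and 8.54, 9.39 and 8.24 in chow. For both genes GCATA was the higher HFHS library, as in monosomes. Between the carboxylases, monosomes held 107 ± 21.9 Acacb counts per 100 Acaca counts in HFHS and 107 ± 5.35 in chow (SD, n = 3 each, exact permutation p = 1.00). Disomes held 87.5 and 113 in HFHS and 84.8, 85.2 and 81.8 in chow, without overlap (exact permutation p = 0.100, the smallest possible). The gap was narrow and the counts were few. The nearest libraries had 49 Acacb and 56 Acaca counts (HFHS CTAGA) and 46 and 54 (chow ATCGT).

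**Figure D2:**
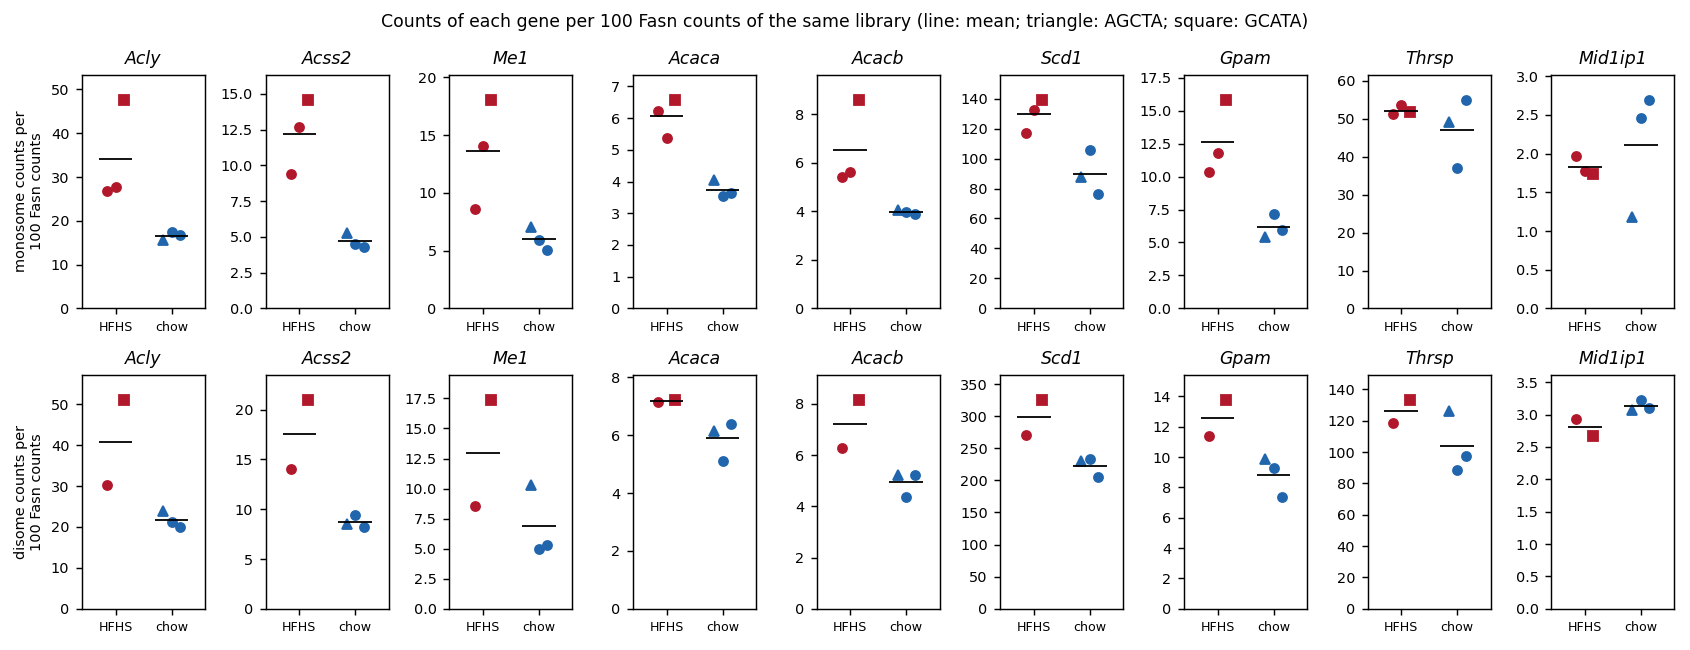
Counts of each of the other 9 genes per 100 Fasn counts of the same library (linear axes from 0), monosomes in the upper row and disomes in the lower, HFHS left and chow right, with the mean as a line. In monosomes all panels but Thrsp and Mid1ip1 show the 3 HFHS libraries above the 3 chow libraries.

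The second comparison repeated the diet contrast in disome footprints, which count ribosomes stacked behind another. edgeR called 0 of the 10 genes in either direction, where 1.82% of the 2804 genes tested were called higher and 1.14% lower. At an unadjusted p below 0.05 there were 2 members above 0 (Acly and Acss2) and 1 below (Fasn), against 375 of the 2804 genes tested. DESeq2 called 0 members. The median log2 fold change of the members was 0.012, against -0.025 over all genes tested, with 5 members on each side of 0.

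Acss2 had the highest and Mid1ip1 the lowest log2 fold change of the 10 in disomes, as in monosomes. Acss2 had 511 and 728 CPM in HFHS and 499.9, 451 and 324 CPM in chow, with no overlap but a narrow gap between CTAGA and AGCTA (log2 fold change 0.57 ± 0.20, adjusted p = 0.113). Acly had 1100.2 and 1772 CPM in HFHS and 1398, 1017 and 785 CPM in chow, where AGCTA lay between the HFHS libraries (log2 fold change 0.45 ± 0.18, adjusted p = 0.183). Fasn had 3635 and 3470.1 CPM in HFHS and 5849.8, 4806 and 3931 CPM in chow. Both HFHS values were below every chow value, and the log2 fold change of -0.45 ± 0.17 did not pass (adjusted p = 0.133, and 0.526 at -0.31 without AGCTA). Mid1ip1 had 107 and 92.8 CPM in HFHS and 179.6, 155 and 122 CPM in chow, again without overlap (log2 fold change -0.56 ± 0.31, adjusted p = 0.436), on raw counts of 23 and 20 in HFHS and 23, 34 and 32 in chow.

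The other members overlapped between the diets in disomes. Me1 had 311 and 603 CPM in HFHS and 601, 237 and 209.5 CPM in chow, where GCATA and AGCTA were high and the remaining libraries low. Its log2 fold change was 0.49 ± 0.46 (adjusted p = 0.729). It was 1.03 and past the threshold without AGCTA (adjusted p = 0.0233), and -0.11 without GCATA. Gpam, set apart by diet in monosomes, had 413 and 478 CPM in HFHS and 578, 447 and 289.5 CPM in chow disomes, a log2 fold change of 0.066 ± 0.21. Scd1 had 9846 and 11287 CPM in HFHS and 13457, 11184 and 8046 CPM in chow, a log2 fold change of -0.042 ± 0.16. For Thrsp the values were 4308 and 4625 CPM in HFHS and 7381, 4240.2 and 3840.1 CPM in chow, where AGCTA stood far above the others (log2 fold change -0.20 ± 0.16). The carboxylases lay at -0.12 ± 0.22 (Acaca) and 0.14 ± 0.23 (Acacb) on the log2 scale. Without AGCTA the disome values were 0.67 for Acly, 0.68 for Acss2, 0.027 for Acaca, 0.29 for Acacb, 0.13 for Scd1, 0.28 for Gpam, 0.14 for Thrsp and -0.47 for Mid1ip1, and none of these passed.

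**Figure D3:**
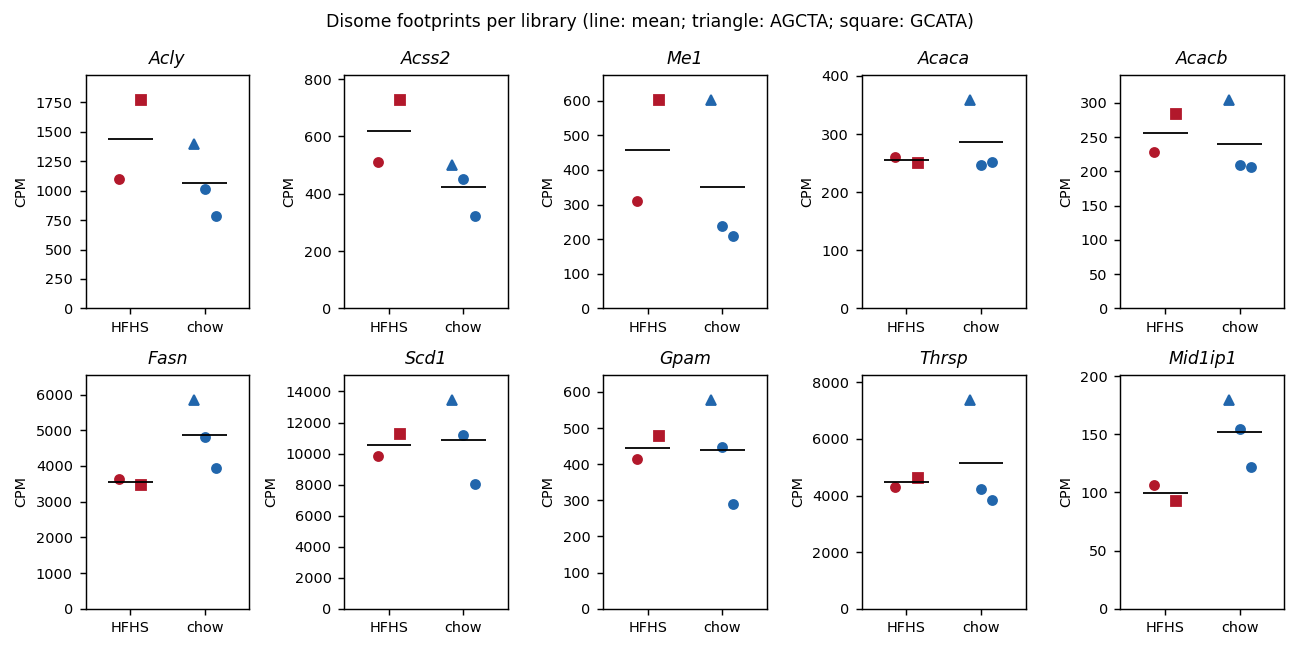
Disome level (CPM, linear axis from 0) of each gene in each library, 2 HFHS libraries left and 3 chow libraries right, with the mean as a line. The chow library AGCTA (triangle) is the highest chow library in every panel.

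**Figure D4:**
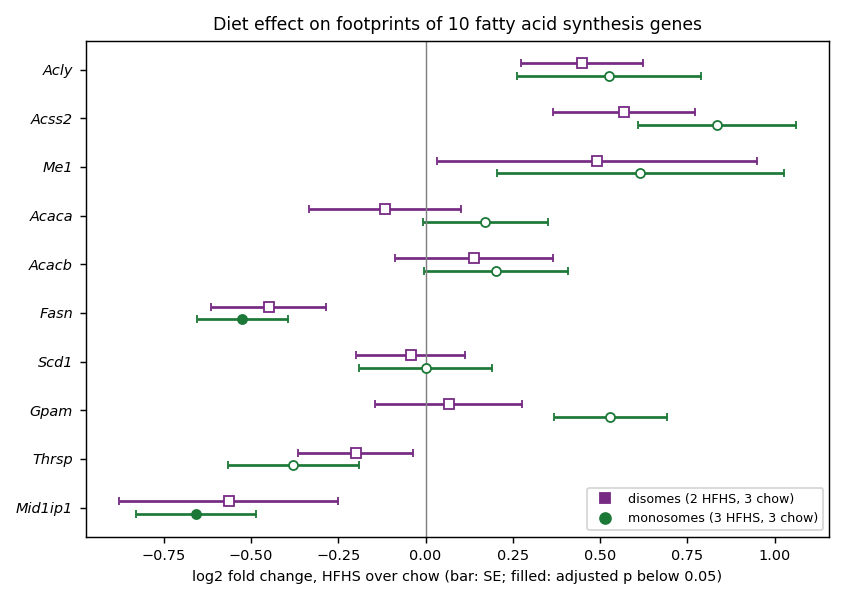
Log2 fold change of HFHS over chow for each gene in disomes (squares) and monosomes (circles), with the SE as bars and filled symbols where the adjusted p is below 0.05. Fasn and Mid1ip1 in monosomes carry the only filled symbols, and Acly, Acss2, Me1, Acacb and Gpam lie right of 0 in both classes.

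The third comparison asked, in 1 model over all 11 libraries, whether the diet acted differently on disomes than on monosomes of the same gene. No difference was detectable: edgeR called 0 of the 10 members, 0% of the 7236 genes tested were called in either direction, and DESeq2 called 0 genes as well. At an unadjusted p below 0.05 there were 0 members and 358 genes in all with edgeR, and 196 genes with DESeq2. The difference, disomes minus monosomes, was widest for Gpam at -0.40 ± 0.29 (log2, SE), followed by Thrsp at 0.27 ± 0.43 and Acaca at -0.22 ± 0.29. For Fasn it was 0.16 ± 0.19 and for Mid1ip1 0.16 ± 0.34. This fit treats all 11 libraries as independent. The approximate 95% interval of the difference was narrowest for Fasn, from -0.21 to 0.54, and widest for Me1, from -1.61 to 1.46. With the barcode as a block the difference was -0.058 ± 0.20 for Me1 and -0.13 ± 0.15 for Acly. It was -0.44 ± 0.19 for Gpam and 0.26 ± 0.13 for Thrsp, and 0 members passed. That block also pairs the HFHS barcodes, which were not taken as pairs. Without a block and without both AGCTA libraries the difference was -0.27 for Gpam, 0.34 for Thrsp, -0.40 for Acss2 and 0.082 for Fasn, and again 0 members passed. The scaling over all libraries removes any change of disomes that is common to all genes.

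Disomes were then set against monosomes within each diet, relative to the average gene. The columns of each class carry a prefix of their own, and the labels do not say whether the classes were prepared or sequenced together, so a difference in preparation and one between footprint classes cannot be told apart. Scd1 was 2.01-fold and Thrsp 2.11-fold higher in disomes than in monosomes on the HFHS diet, and the other 8 members did not pass. Of all genes tested, 32.2% had an absolute log2 ratio at least as large as Scd1, and 29.2% at least as large as Thrsp. edgeR called 2 of the 10 genes higher in disomes and 0 lower in HFHS, where 11.5% of the 7437 genes tested were called higher and 13.6% lower. At an unadjusted p below 0.05 the members numbered 2 above 0 and 0 below, against 2733 of the 7437 genes tested. DESeq2 called 2 members higher and 0 lower. In these fits Scd1 averaged 9255 ± 1020.0 CPM in HFHS disomes (n = 2) and 4598 ± 376 CPM in HFHS monosomes (n = 3), a log2 ratio of 1.01 ± 0.12 with edgeR adjusted p = 1.43e-07. Thrsp averaged 3911 ± 251 CPM in HFHS disomes and 1854 ± 59.2 CPM in HFHS monosomes, a log2 ratio of 1.08 ± 0.12 with adjusted p = 7.48e-08. For both genes no disome library overlapped a monosome library, and both were called whichever of the 5 HFHS libraries was left out.

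In chow Scd1 was 2.05-fold higher in disomes, and the errors of both genes were wider. An absolute log2 ratio at least as large as that of Scd1 was found in 28.8% of genes tested, and as that of Thrsp in 36.1%. edgeR called 1 member higher and 0 lower, where 21.6% of the 4713 genes tested were called higher and 23.3% lower. At an unadjusted p below 0.05 there were 2 members above 0 (Scd1 and Acss2) and 0 below, against 2452 of the 4713 genes tested. DESeq2 also placed Scd1 and Thrsp past the threshold, both higher. The share of all genes that DESeq2 called in chow is not given here, so this is not set against all genes. Scd1 averaged 10088 ± 2450.2 CPM in chow disomes and 4923 ± 1322 CPM in chow monosomes (n = 3 each), a log2 ratio of 1.03 ± 0.27 with adjusted p = 0.0258. It missed the threshold without the monosome library ATCGT (1.03, adjusted p = 0.117), without the disome library ATCGT (0.94, adjusted p = 0.188) and with no filter on low counts (0.86, adjusted p = 0.168). Thrsp averaged 4765 ± 1741 CPM in chow disomes and 2589.9 ± 818 CPM in chow monosomes, a log2 ratio of 0.88 ± 0.38 that did not pass (adjusted p = 0.135). With both AGCTA libraries left out, Thrsp stood at 0.74 (adjusted p = 0.000454), Acss2 at 0.73 (0.00506) and Scd1 at 0.99 (1.61e-05), all past the threshold. How many of all genes were called without both AGCTA libraries, or with the barcode as a block, is not given here. The counts of members in these fits are therefore not set against all genes. Chow libraries of a barcode deviated together, where AGCTA stood apart in both classes and deviations in a group of 3 sum to 0. With the barcode as a block edgeR called 5 members in chow, 4 higher and 1 lower. These were Scd1 (1.04, adjusted p = 1.56e-36), Thrsp (0.87, adjusted p = 2.05e-23), Acss2 (0.64, adjusted p = 1.39e-05), Acaca (0.38, adjusted p = 0.0308) and, lower, Fasn (-0.28, adjusted p = 0.00245).

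Fasn, like Me1 and Acacb, lay below 0 in both diets. The log2 ratio of Fasn was -0.19 ± 0.12 in HFHS (adjusted p = 0.260) and -0.29 ± 0.16 in chow (adjusted p = 0.143). Of all genes tested, 84.8% in HFHS and 75.3% in chow had an absolute log2 ratio at least as large. In HFHS the disome libraries of Fasn lay below its monosome libraries without overlap, and in chow they overlapped. The chow value was -0.46 and passed without the disome library AGCTA (adjusted p = 0.0126). Acss2 lay above 0 in both diets, at 0.33 ± 0.19 in HFHS and 0.58 ± 0.24 in chow, and so did Mid1ip1, at 0.42 ± 0.26 and 0.31 ± 0.22. Acly lay at 0.052 ± 0.40 in HFHS and 0.11 ± 0.17 in chow, and Acacb at -0.067 ± 0.23 in HFHS and -0.012 ± 0.19 in chow. Me1 had the widest errors, at -0.27 ± 0.46 in HFHS and -0.16 ± 0.56 in chow.

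**Figure D5:**
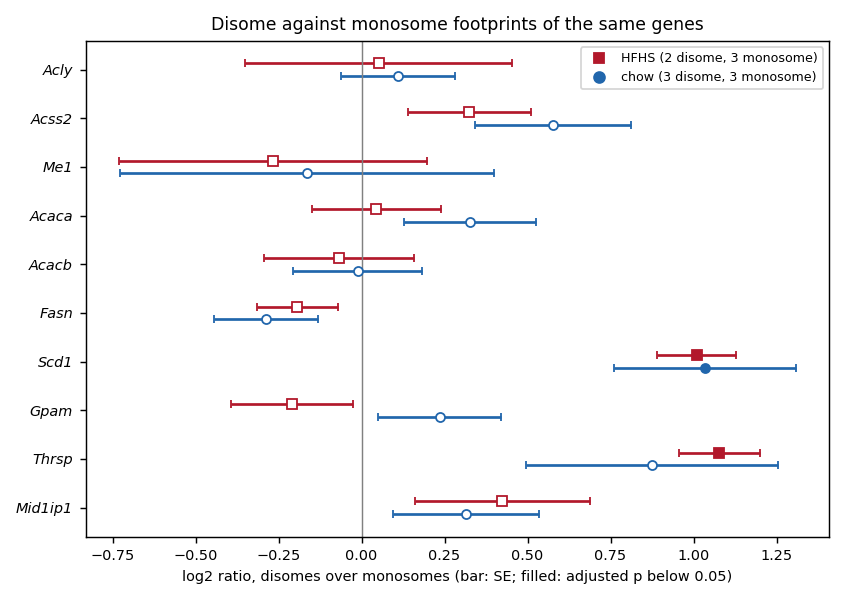
Log2 ratio of disomes over monosomes for each gene in HFHS (squares) and chow (circles), with the SE as bars and filled symbols where the adjusted p is below 0.05. Scd1 and Thrsp lie near 1 in both diets, and Fasn, Me1 and Acacb lie below 0 in both.

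The genes whose profile was most like that of Fasn were sought among 1784 genes with at least 50 CPM in both classes, from log2(CPM + 1) over the 11 libraries after the mean of each class was subtracted. The 3 closest outside the list were ENSMUSG00000020538 (Pearson r = 0.89), ENSMUSG00000032777 (r = 0.88) and ENSMUSG00000049580 (r = 0.88), which the files do not pair with names. Monosome and disome libraries share barcodes, so the 11 points are not independent. They include both AGCTA libraries, where Fasn was highest in each class, and no correlation was computed without these. The diet values of the 3 genes come from the same libraries that chose them and are given as a description, with no test. The log2 fold change of HFHS over chow was -0.94 in monosomes and -0.73 in disomes for ENSMUSG00000020538, -0.35 and -0.54 for ENSMUSG00000032777, and -1.04 and -1.01 for ENSMUSG00000049580. Among the listed genes Thrsp was closest to Fasn (r = 0.78), ahead of Mid1ip1 (r = 0.63), Scd1 (r = 0.50) and Acaca (r = 0.46). For Acly r was -0.13 and for Acss2 -0.30.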

How the data were processed

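Monosome and disome footprint libraries of mouse liver were compared between diets and between footprint classes. The authors deposited raw counts, as whole numbers per gene over coding sequences, with no normalization. cutadapt 3.5 and Bowtie2 are named, per the submitters' processing notes. The genome build, annotation, strand setting and treatment of molecular identifiers and shared reads were not given in the sources used here. Columns were placed in groups by their names, which carry a barcode and no replicate number. The deviations of monosome and disome libraries with the same barcode from their group means correlated at 0.68 to 0.86 over 2160 genes for the 3 chow barcodes, which were taken as pairs on this evidence alone, and at 0.085 and 0.29 for the HFHS barcodes, which were not. Deviations within a group of 3 sum to 0, and AGCTA stood apart in both classes. The correlations of ATCGT and CGTAA therefore depend on AGCTA and are weak evidence for pairs of their own. Of the labelled HFHS disome samples, replicate 2 is not analysed here.

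Every fit ran over all genes that passed filterByExpr (minimum count 10) in edgeR 4.0.16 (R 4.3.3), with TMM factors, a robust fit, two-sided quasi-likelihood tests, Benjamini-Hochberg adjustment over all genes tested and a threshold of 0.05. The standard error is the size of the log2 fold change divided by the square root of F. DESeq2 1.42.0 was an alternative. The others were RLE factors, no filter, all 11 libraries in 1 fit, the barcode as a block and leaving out each library. Leaving out both libraries of AGCTA or of GCATA was added after the data were seen. The rule for named genes takes all 10 members. The rule for the members uses no measured value, but members, lists and tests were chosen with earlier results of these data known. Other pathway genes and cell type markers had been listed by symbol. With no table that pairs them with the identifiers used here, they were not analysed here, and the labelled tissue was not checked against markers. A p-value from edgeR or DESeq2 here sets a difference between groups against the spread of these libraries, which may be only technical. The scripts were tested on simulated data.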

Additional observations from a re-analysis of the deposited data

How the results depend on the processing

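Counting error was widest for Mid1ip1, the member with the fewest counts, at 20 to 34 in a disome library. Where a disome HFHS library was left out, the lone one was assumed to vary like the other group. The number of members called for the diet in monosomes was 1 with DESeq2 (Acss2, higher), 6 with no filter (3 higher, 3 lower), and 0 to 3 when a library was left out. It was 0 without the HFHS library GCATA and 1 without the chow library ATCGT (Thrsp, lower), the chow library CGTAA (Fasn, lower) or the HFHS library GATCA (Gpam, higher). For disomes against monosomes in HFHS it was 2 to 3. For the diet in disomes it was 0 to 1 when a library was left out, the 1 being Me1 without AGCTA. For disomes against monosomes in chow it was 2 with DESeq2, 2 with all 11 libraries in 1 fit, 3 without both AGCTA libraries, and 0 to 4 when a library was left out. It was 0 without either ATCGT library, 4 without the monosome library AGCTA, 3 without the disome library AGCTA or CGTAA and 2 without the monosome library CGTAA. With no filter it was 1, Fasn (lower) in place of Scd1. Over all genes, those called for the diet in monosomes were 116 higher and 53 lower with DESeq2, against 204 and 110. They were 264 and 146 of 13429 with no filter, and 85 to 203 higher and 57 to 117 lower when a library was left out. In disomes they were 14 and 9 with DESeq2, against 51 and 32, and 25 and 26 of 2722 without AGCTA. Between the classes in chow, the counts over all genes with DESeq2, with all 11 libraries in 1 fit and with libraries left out are not given here. The member counts of those chow fits are therefore not set against all genes. Disomes against monosomes in HFHS had 629 and 582 calls with DESeq2, against 854 and 1010, and 425 and 555 without the disome library CTAGA. With no filter the split was 671 and 1218 in HFHS, and 889 and 1532 against 1017 and 1097 in chow. The median of all shared genes then shifted by -0.14 in HFHS and -0.17 in chow (log2). With the barcode as a replicate block 4 members were called in HFHS (3 higher, 1 lower) and 5 in chow (4 higher, 1 lower). The shares of all genes called in these 2 blocked fits are not given here. The blocked difference of diet effects had 0 members among 7 genes called lower. In HFHS, with 2 pairs, and over all 5 pairs, where 1 correlation was under 0.1, the barcodes were not taken as pairs, and the calls the block added in HFHS were Acss2 (higher) and Fasn (lower). The levels per coding length were not run, since coding lengths were not used here. For the diet in monosomes, the sign turned to Scd1 -0.011 with all 11 libraries in 1 fit. There, leaving out a library gave Acacb -0.057 to 0.43 and Scd1 -0.19 to 0.18. For the diet in disomes, the sign turned to Scd1 0.053 with no filter, Scd1 0.034 with all 11 libraries in 1 fit. There, leaving out a library gave Me1 -0.11 to 1.03, Acaca -0.21 to 0.027, Acacb -0.041 to 0.29, Scd1 -0.22 to 0.13, Gpam -0.19 to 0.28 and Thrsp -0.38 to 0.14. For the difference of the diet effects, the sign turned to Acly -0.010 and Acacb -0.0030 with DESeq2, Acly -0.011 and Acacb -0.0049 with RLE factors, Acly -0.035 and Acacb -0.032 with no filter, Acly -0.13 and Acacb -0.14 with the replicate block, Me1 0.12 and Acacb -0.060 without both AGCTA libraries, Acly -0.045 without both GCATA libraries. There, leaving out a library gave Acly -0.41 to 0.31, Acss2 -0.50 to 0.046, Me1 -0.67 to 0.49, Acacb -0.21 to 0.24, Fasn -0.046 to 0.29, Scd1 -0.15 to 0.21 and Mid1ip1 -0.019 to 0.32. For disomes against monosomes in HFHS, the sign turned to Acly -0.082 and Acaca -0.092 with no filter, Acly -0.10 and Acaca -0.070 with the replicate block, Acacb 0.034 without both GCATA libraries. There, leaving out a library gave Acly -0.37 to 0.42, Me1 -0.86 to 0.12, Acaca -0.062 to 0.15, Acacb -0.27 to 0.23 and Gpam -0.35 to 0.037. For disomes against monosomes in chow, the sign turned to Acly -0.058 with no filter, Acacb 0.031 with the replicate block, Acly -0.0021 without both AGCTA libraries. There, leaving out a library gave Acly -0.14 to 0.27, Me1 -0.72 to 0.15, Acacb -0.20 to 0.16 and Gpam -0.0025 to 0.46. All other log2 fold changes of members kept their sign under the alternatives run. Over these, calls of single members were lost 10 and gained 10 times for the diet in monosomes and 0 and 1 times in disomes. Between the classes they were lost 0 and gained 3 times in HFHS, and lost 3 and gained 17 times in chow. The causes were not tested.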
